A study of Mus musculus with 18 samples.

Results

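The genes described here are those of the insulin-like growth factor (IGF) axis that bind IGFs outside the cell, receive them at the membrane, or carry IGF2 in their name because their products bind its mRNA. They were chosen by symbol, with earlier results of these data known: the list holds 5 IGF binding protein genes (Igfbp2, Igfbp3, Igfbp4, Igfbp5 and Igfbp6), 2 receptor genes (Igf1r and Insr) and 3 IGF2 mRNA binding protein genes (Igf2bp1, Igf2bp2 and Igf2bp3). All 10 were present among the 20703 genes of the expression table. Igfbp3 was selected on its large difference between Nsd1-KO and WT cells at day 4, so for all 10 genes the comparison of the genotypes at day 4 is given below as a description, without a test. The same holds for the changes of Igfbp3 from day 2 to day 4.

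RNA was sequenced from E14 mouse embryonic stem cells (mESCs), an established line, that were WT or carried a homozygous deletion of exon 5 of Nsd1, which encodes a histone H3 lysine 36 methyltransferase. Each of the KO lines, Nsd1-KO-1 and Nsd1-KO-2, was a single-cell clone. They were made with 2 Cas9 complexes cutting introns 4 and 5 in E14 cells whose Nsd1 already carried a C-terminal 3×Flag tag with a neomycin resistance cassette, and the labels do not say whether the WT cells carried it. The paper's immunoblot of Nsd1 used WT cells with this tag beside the KO clones. For the WT cells of the RNA libraries the tag is not named. Before differentiation the cells were kept with leukemia inhibitory factor (LIF), either on feeder layers of mouse embryonic fibroblasts (MEFs) or on gelatin, and which of these the day 0 libraries came from is not given in the sources used here. Those of day 2 and day 4 were left to differentiate as a monolayer on gelatin after LIF and MEFs were withdrawn, although the labels give the withdrawal as the treatment of every library, day 0 included. Each line was grown as 2 biological replicates per day, which gave 18 libraries, 2 WT and 4 KO at a given day. The 4 KO libraries come from 2 clones, so they are not 4 independent deletions.

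IGF1 and IGF2 act through IGF1R, a receptor tyrosine kinase, and the closely related insulin receptor INSR also binds IGF2 in one of its isoforms. Both receptors recruit insulin receptor substrates and feed the PI3K, AKT and mTOR cascade, which drives growth, survival and protein synthesis in embryonic cells. The secreted IGFBPs hold IGFs with an affinity near that of the receptor. They carry them, shield them from the receptor, or release them when proteases cut the binding protein. The IGF2BPs are not IGFBPs. They are cytoplasmic RNA-binding proteins that hold and stabilize transcripts, many of them marked with N6-methyladenosine, and their genes are mostly expressed in embryonic cells.

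Between 9309874 and 23921193 counts fell on genes per library (median 15721347), and the shallowest were the WT libraries of day 2, with 9309874 and 9356867. Levels are given as normalized counts, that is counts divided by the library's size factor, and tests were made on the deposited values after the variance stabilizing transformation (VST), a log2 scale on which changes of weakly expressed genes are compressed. Nsd1 itself was lower in every KO library. It had 3374 and 3660 normalized counts in the WT libraries at day 0 against 635 to 837 in the 4 KO libraries, 2773 and 3344 against 854 to 1024 at day 2, and 2425 and 2111 against 575 to 1103 at day 4, with an adjusted p of 8.77e-10, 1.82e-08 and 1.47e-07 by limma. These are counts over the whole gene, so they do not show the deleted exon by itself. Within replicate pairs, the counts of the Nsd1-KO-1 libraries of day 0 and of day 4 stood farthest apart, with a chi-square per degree of freedom of 12.53 and 12.64 against 2.22 to 6.56 in the other pairs. Most low counts were even, and if every read pair had been counted as 2, although the methods name fragments as the unit, sampling alone would double this ratio. With all counts halved the closest pair, Nsd1-KO-2 at day 0, had 1.11 over 14420 degrees of freedom (chi-square test between these libraries, p = 1.63e-19). This test covers counting error only, and was made to see whether any pair could be one library deposited again.

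Markers of other cells were read beside the IGF genes. The pluripotency markers were all 6 in the table, with Tdgf1 the most abundant over all libraries. At day 0 they summed to 66999 ± 1328 normalized counts (SD, n = 2) in WT, against 65037 ± 1453 (SD, n = 4) in KO. At the same day the 10 feeder fibroblast markers summed to 3786 and 3644 in WT and to 5070 to 5951 in KO, with Col1a1, the collagen I gene, the most abundant. The order turned later, with 2420 and 2575 in WT and 2014 to 2088 in KO at day 2, and 3276 and 3459 in WT and 2106 to 2908 in KO at day 4. Lum, a defining fibroblast gene, was at 0 in every day 0 library, while at that day Col1a1, Col1a2 and Col3a1 were higher in KO and Pdgfrb was lower. MEFs can express IGFBPs, and the part of feeder RNA in the day 0 values was not tested. At day 4 the 5 trophoblast markers summed to 1766 ± 57.3 in WT and 256 ± 78.1 in KO (3 lower), the 4 neuroectoderm markers to 5440 ± 271 and 2413 ± 471 (1 higher, 1 lower), and the 7 markers of primitive or visceral endoderm to 546 ± 43.1 and 456 ± 152 (none past the thresholds in limma). Cdx2 carried most of the trophoblast sum at day 4, with 1084 and 1113 normalized counts in WT and 139 to 277 in KO. Hand1, also in this list, is named by the paper among regulators of mesoderm-derived tissues. The list is therefore not of trophoblast alone. At day 2 the WT sums of these lists were also above those of KO, with 182 ± 2.12 and 37.4 ± 11.1 for trophoblast, 2361 ± 117 and 1016 ± 98.2 for neuroectoderm and 686 ± 14.8 and 334 ± 16.0 for endoderm. At day 0 the WT sum was above that of KO for trophoblast (216 ± 13.4 and 87.1 ± 35.1) and below it for neuroectoderm (468 ± 67.2 and 907 ± 172) and endoderm (149 ± 2.83 and 208 ± 44.7), without overlap in any of these lists. In bulk RNA, fewer cells of a type and less RNA per cell cannot be told apart.

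Promoter sequences show what lies just upstream of the genes that parted most between the genotypes on the VST scale, 3 IGFBP and 2 IGF2BP genes. On normalized counts Igfbp5, a weakly expressed gene, parted by up to 5.15-fold and is not printed. The table of RefSeq promoters used here, on GRCm38.p6, holds 8 of the 10 genes, whereas the reads had been aligned to mm39. Insr and Igf2bp1 were not in that table. The 250 bases before the start are printed 5′ to 3′ in the direction of the gene, with each CG dinucleotide in capitals. Igfbp3 (chr11:7213924-7214173 on the minus strand) had 32, Igfbp4 (chr11:99040994-99041243 on the plus strand) 22, and Igfbp2 (chr1:72824230-72824479 on the plus strand) 14. Igf2bp2 (chr16:22163300-22163549 on the minus strand) had 40 and Igf2bp3 (chr6:49214955-49215204 on the minus strand) 21.
Igfbp3 promoter: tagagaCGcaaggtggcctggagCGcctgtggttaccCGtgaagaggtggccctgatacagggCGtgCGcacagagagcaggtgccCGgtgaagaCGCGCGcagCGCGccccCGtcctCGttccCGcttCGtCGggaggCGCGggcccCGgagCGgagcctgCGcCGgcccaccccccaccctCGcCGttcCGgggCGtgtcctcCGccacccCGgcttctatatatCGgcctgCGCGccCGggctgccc
Igfbp4 promoter: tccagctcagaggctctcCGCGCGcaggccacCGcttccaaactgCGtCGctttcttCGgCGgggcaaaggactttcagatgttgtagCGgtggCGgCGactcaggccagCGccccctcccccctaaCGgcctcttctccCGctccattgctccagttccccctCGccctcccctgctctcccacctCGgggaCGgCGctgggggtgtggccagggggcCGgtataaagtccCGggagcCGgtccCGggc
Igfbp2 promoter: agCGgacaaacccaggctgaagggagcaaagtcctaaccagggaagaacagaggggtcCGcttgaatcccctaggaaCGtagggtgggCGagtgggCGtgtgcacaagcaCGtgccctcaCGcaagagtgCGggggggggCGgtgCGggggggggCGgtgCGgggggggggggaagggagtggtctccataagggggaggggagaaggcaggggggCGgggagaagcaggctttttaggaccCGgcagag
Igf2bp2 promoter: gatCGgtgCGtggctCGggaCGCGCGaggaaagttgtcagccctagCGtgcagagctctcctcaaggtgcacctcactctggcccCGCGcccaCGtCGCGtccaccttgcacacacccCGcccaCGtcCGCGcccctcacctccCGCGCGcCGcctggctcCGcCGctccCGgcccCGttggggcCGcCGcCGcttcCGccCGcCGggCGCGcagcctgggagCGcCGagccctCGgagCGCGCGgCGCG
Igf2bp3 promoter: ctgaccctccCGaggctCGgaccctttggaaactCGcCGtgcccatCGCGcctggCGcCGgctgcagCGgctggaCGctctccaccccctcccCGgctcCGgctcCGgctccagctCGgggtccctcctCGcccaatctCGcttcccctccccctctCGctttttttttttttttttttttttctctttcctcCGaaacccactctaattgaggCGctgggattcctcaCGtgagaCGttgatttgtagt

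The median of 32536 promoters of that length was 6 CG dinucleotides, and 95.4% of them had fewer than Igfbp3, 98.7% fewer than Igf2bp2 and 70.4% fewer than Igfbp2. Of the other genes, Igf1r had 42, Igfbp5 10 and Igfbp6 7. Both strands were searched for letters of known motifs. The TATA box, TATAAA, is held by 12.3% of all these promoters and was found once in Igfbp4 and once in Igfbp6. Only these exact letters were searched, so like letters, such as TATATAT near the end of the Igfbp3 window, were not counted. The GC box, GGGCGG, is held by 33.0% and was found 3 times in Igfbp2 and 2 times in Igf1r and in Igf2bp2. A T-box motif (GGTGTGA, in 3.33% of promoters), a motif of the TCF and LEF factors (CTTTGAT, in 3.21%) and one of zinc finger factors of the GATA family (AGATAA, in 9.97%) were also searched. These last letters were in none of the 8 windows, which says nothing of the factors themselves.

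Before any comparison of the genotypes, the genes differed widely in level. Per kilobase of exon, Igfbp2 was the most abundant of all 10 in WT cells at day 0, with 5607 ± 139 normalized counts per kb (SD, n = 2). Igf2bp1 followed with 841 ± 13.6, Igf2bp2 with 375 ± 1.19, Igfbp4 with 119 ± 6.80 and Igf2bp3 with 115 ± 8.99, and the last 2 did not differ beyond their spread. Igfbp3 stood at 79.3 ± 10.7, Igf1r at 54.8 ± 3.49 and Insr at 29.5 ± 0.0321 per kb. Igfbp6, at 10.1 ± 7.01, and Igfbp5, at 7.22 ± 0.0531, closed the order and overlapped.

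The order of the IGFBP genes turned over in WT cells by day 4 and stayed as it was in KO cells. Igfbp2 held 96.3% ± 0.0353 of the family's normalized counts per kb in WT at day 0, 94.5% ± 0.603 at day 2 and 14.1% ± 0.758 at day 4 (SD, each over 2 libraries), when Igfbp3 held 80.1% ± 0.916 and Igfbp4 5.51% ± 0.187. In KO cells Igfbp2 held 96.6% ± 0.293, 96.1% ± 0.351 and 94.2% ± 1.79 at day 0, 2 and 4 (SD, n = 4), and Igfbp3 4.52% ± 1.83 at day 4. The summed level of the 5 genes per kb was 5822 ± 142, 5075 ± 107 and 9237 ± 394 in WT and 4971 ± 503, 4239 ± 286 and 6912 ± 1592 in KO.

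**Figure D1:**
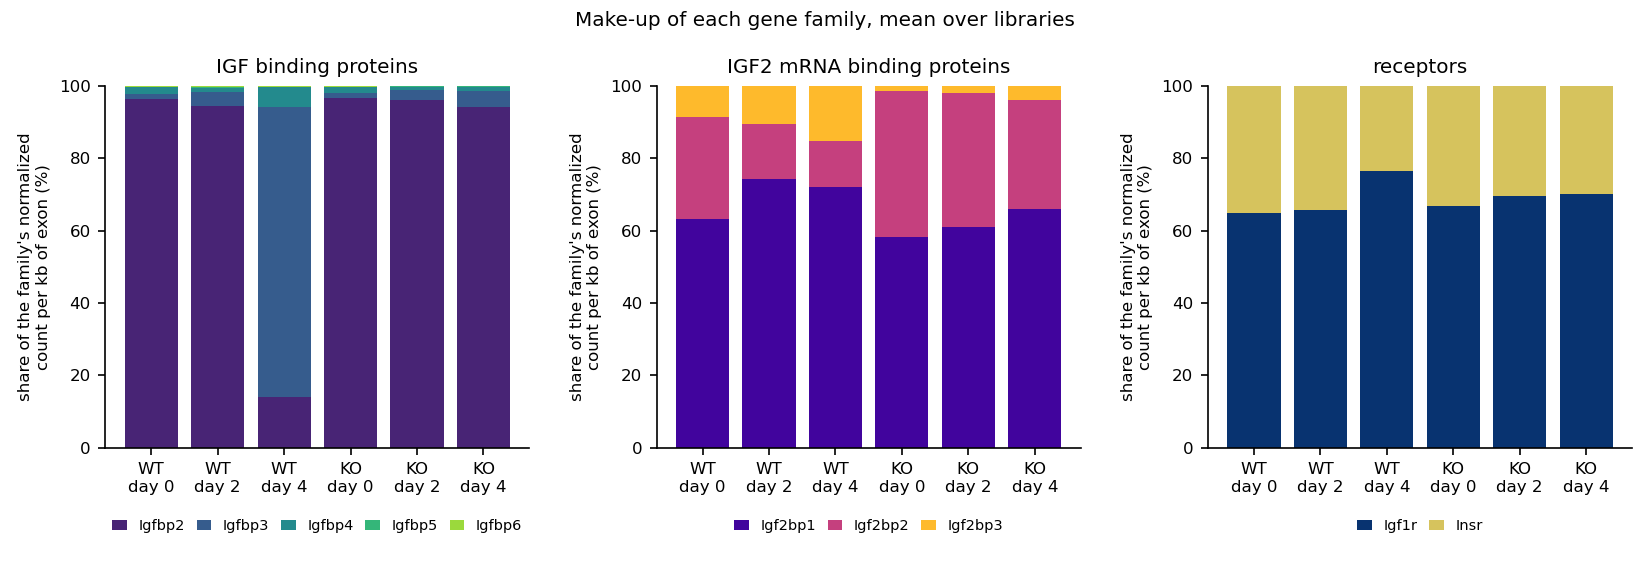
Share of each gene (stacked bars, percent, mean over 2 WT or 4 KO libraries) in its family's normalized counts per kb of exon, by genotype and day. Igfbp3 takes 80.1% of the IGFBP family in WT at day 4 alone, while Igf2bp3 takes 15.2% of the IGF2BP family in WT at day 4 and 3.85% in KO.

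Between the genotypes, 3 of the 10 genes passed both thresholds (limma, adjusted p under 0.01 and absolute log2 fold change over 0.58) at day 0 and the same 3 at day 2: Igf1r and Igf2bp2 were higher and Igf2bp3 was lower in KO. Of all genes, 2.61% passed at day 0 and 6.38% at day 2. At day 4, the day that chose the list, Igfbp2 and Igf2bp2 were past both thresholds on the higher side and Igfbp3, Igfbp4 and Igf2bp3 on the lower side, 5 of 10 beside 7.58% of all genes, from which nothing is read. On counts, limma-voom passed 4 of the 10 at day 0 and 6 at day 2, beside 13.3% and 23.9% of all genes. It added Insr at day 0, and Insr, Igfbp3 and Igfbp5 at day 2. At day 4, the day that chose the list, 6 of the 10 were past both thresholds by limma-voom beside 23.9% of all genes, and nothing is read from this either. The median log2 fold change of the 10 genes was 0.004 at day 0 and -0.149 at day 2.

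**Figure D2:**
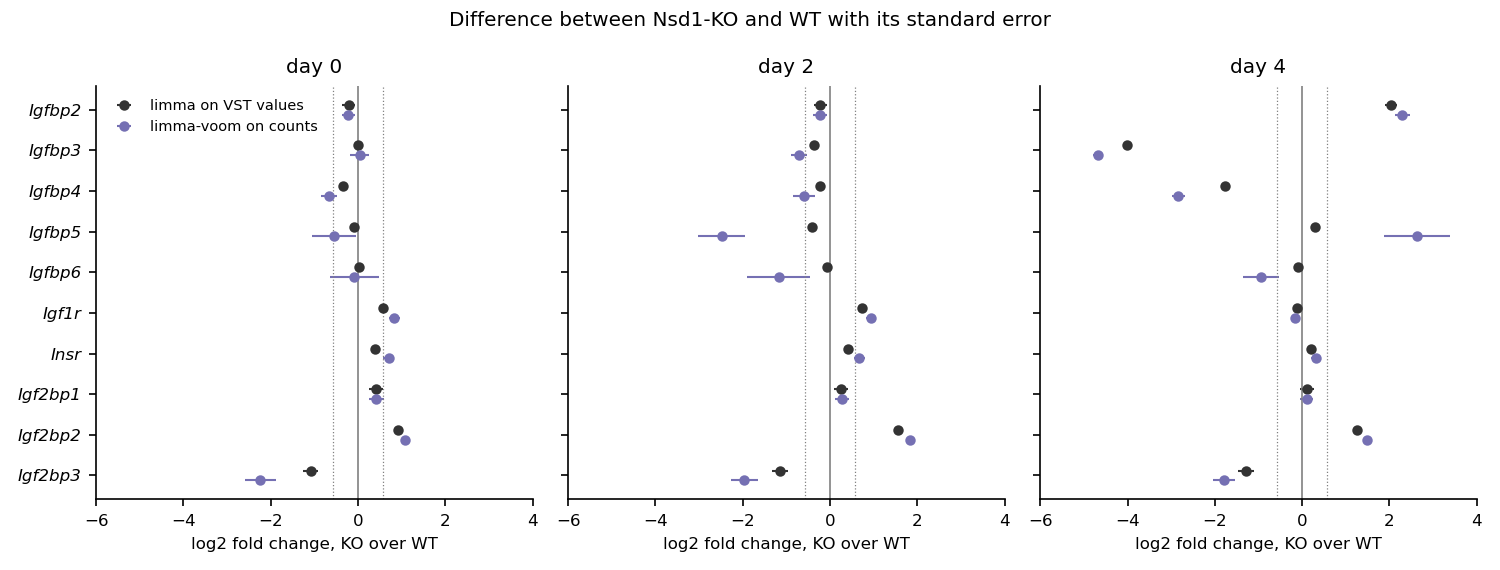
Log2 fold change of KO over WT (x axis) of each gene at day 0, 2 and 4, with its standard error as a bar, from limma on the VST values (black) and limma-voom on counts (purple), and dotted lines at an absolute log2 fold change of 0.58. Igf2bp2 lies right and Igf2bp3 left of the lines at every day, and Igfbp2, Igfbp3 and Igfbp4 do so at day 4 alone in the VST fit.

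Igfbp3 (ENSMUSG00000020427) encodes the main IGF carrier of adult serum and is also known to act on cells without IGF. In WT cells it had 225 and 272 normalized counts at day 0, 561 and 642 at day 2, and 24051 and 22280 at day 4. The 4 KO libraries, given as Nsd1-KO-1 then Nsd1-KO-2, had 199, 237, 286 and 266 at day 0, 347, 366, 379 and 367 at day 2, and 963, 1166, 757 and 758 at day 4. The genotypes overlapped at day 0, and the KO libraries all lay below both WT libraries at day 2 and, by a wide gap, at day 4. Igfbp3 rose 2.42-fold from day 0 to day 2 in WT, by 0.61 on the log2 VST scale (SE 0.101, adjusted p = 6.59e-05), where 6.68% of all genes and no other of the 10 passed in limma on VST values, while limma-voom passed Igfbp4, Igf1r and Insr too, beside 19.5% of all genes. Without replicate 1 of WT at day 0, or without replicate 2 of WT at day 2, the change was 0.555, under the fold threshold. From day 2 to day 4 the WT mean was 38.5-fold higher and the KO mean 2.5-fold higher, values of the libraries that chose the gene.

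At day 0 the KO over WT ratio of Igfbp3 was 0.994, with -0.005 on the log2 VST scale (SE 0.088, adjusted p = 0.981) and a 95% interval of 0.172 on either side. At day 2 it was 1.65-fold lower in KO, with -0.369 on the VST scale (SE 0.088, adjusted p = 0.00178), under the fold threshold, and -0.717 by limma-voom (SE 0.181, adjusted p = 0.00329). At day 4 the KO mean of 911 ± 196 (SD, n = 4) was 25.4-fold under the WT mean of 23166 ± 1252 (SD, n = 2), or -4.00 on the VST scale (SE 0.088). Both clones were low, with Nsd1-KO-1 at 21.8-fold and Nsd1-KO-2 at 30.6-fold under WT. Markers of the primitive streak and nascent mesoderm moved with it: their 6 genes summed to 30113 and 29330 normalized counts in the WT libraries of day 4 and to 850, 880, 338 and 401 in KO, with T (brachyury) the most abundant. At day 2, when Igfbp3 was already lower on counts, they summed to 301 and 314 in WT and to 88.4 to 128 in KO, without overlap. At day 0, when Igfbp3 overlapped between the genotypes, they summed to 151 and 160 in WT and to 81.3 to 109 in KO, also without overlap. Of the 6, 5 passed both thresholds on the lower side at day 4, and their part in the level of Igfbp3 was not tested.

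Igfbp2 (ENSMUSG00000039323), which encodes a binding protein known from fetal tissues and fluids, took the opposite course in WT from day 2 to day 4. It had 10537 and 10174 normalized counts in the WT libraries at day 0, 9034 and 8691 at day 2, and 2391 and 2428 at day 4. In KO it had 7535, 9480, 9193 and 9268 at day 0, 8118, 7375, 7739 and 6876 at day 2, and 8806, 10240, 14752 and 14439 at day 4. KO libraries lay slightly below WT at the first days and all far above it at day 4. The difference between the genotypes was -0.215 at day 0 (SE 0.141, adjusted p = 0.281) and -0.221 at day 2 (SE 0.141, adjusted p = 0.214). From day 2 to day 4 Igfbp2 fell 3.68-fold in WT, by 1.65 on the log2 scale (SE 0.163, adjusted p = 6.31e-08).

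In the same interval Igfbp2 rose 1.6-fold in KO, by 0.608 (SE 0.115, adjusted p = 4.75e-04), a step in which 1.49% of all genes and 3 of the 10 passed, the others being Igf2bp3 and, as a value that chose the list, Igfbp3. The KO change was 0.275 (adjusted p = 0.0553) with Nsd1-KO-1 alone, and it went under the fold threshold without Nsd1-KO-2 replicate 2 of day 2 (0.569), replicate 1 of day 4 (0.505) or replicate 2 of day 4 (0.515). At day 4 the KO mean of 12059 ± 2989 (SD, n = 4) was 5.0-fold over the WT mean of 2410 ± 26.5 (SD, n = 2), 3.95-fold in Nsd1-KO-1 and 6.06-fold in Nsd1-KO-2, or 2.04 on the log2 scale (SE 0.141). The 6 pluripotency markers summed to 16228 ± 330 in WT and 15165 ± 1013 in KO at that day, where 4 of them were higher in KO and 1 lower, and their part in the level of Igfbp2 was not tested. The ratio of Igfbp3 to Igfbp2 normalized counts was 10.1 and 9.17 in the WT libraries of day 4 and 0.0513 to 0.114 in the KO libraries of that day, while at day 0 it lay between 0.0213 and 0.0311 in all 6 libraries.

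Igfbp4 (ENSMUSG00000017493) encodes a binding protein that mostly inhibits IGF action until the protease PAPP-A cleaves it. It had 546 and 504 normalized counts in the WT libraries at day 0, 257 and 301 at day 2, and 2261 and 2233 at day 4, against 271, 332, 354 and 358, then 168, 163, 215 and 188, then 200, 275, 419 and 389 in KO. No KO library reached either WT library of its day. The difference was -0.333 at day 0 (SE 0.090, adjusted p = 0.00765) and -0.235 at day 2 (SE 0.090, adjusted p = 0.0381), neither past the fold threshold. Igfbp4 rose 8.04-fold in WT from day 2 to day 4, by 1.84 (SE 0.104, adjusted p = 1.19e-11), one of 5 of the 10 genes past both thresholds in that step in limma on VST values (with Igf1r, Igf2bp3, Igfbp2 and, as a description, Igfbp3, where limma-voom had Igfbp5 in place of Igf2bp3 and 24.1% of all genes) beside 8.76% of all genes. In KO the mean was 1.75-fold higher at day 4 than at day 2, with libraries of both days overlapping. The value was 0.305 on the VST scale (SE 0.073, adjusted p = 0.00379), under the fold threshold, and 0.772 by limma-voom (SE 0.182, adjusted p = 0.00321), past it, in a step where limma-voom passed 10.3% of all genes. At day 4 the KO mean of 320 ± 102 (SD, n = 4) was 7.01-fold under the WT mean of 2247 ± 19.7 (SD, n = 2), or -1.77 on the log2 scale (SE 0.090). Nsd1-KO-1 stood 9.47-fold and Nsd1-KO-2 5.57-fold under WT.

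Igfbp5 (ENSMUSG00000026185) and Igfbp6 (ENSMUSG00000023046) were near the lower end of what these libraries could measure. Igfbp5, which lies next to Igfbp2 in a tail-to-tail arrangement, had 43.6 and 43.2 normalized counts in the WT libraries at day 0, 78.2 and 90.8 at day 2, and 19.1 and 2.53 at day 4. In KO it had 9.64, 27.8, 44.4 and 41.1 at day 0, 17.6, 8.13, 12.5 and 27.4 at day 2, and 81.2, 25.6, 40.6 and 36.5 at day 4. At day 2 every KO library was below WT, with -0.41 on the compressed VST scale (SE 0.082, adjusted p = 3.7e-04) and -2.49 by limma-voom (SE 0.541, adjusted p = 9.66e-04). The order was the reverse at day 4, 0.287 (SE 0.082) and 2.64 (SE 0.754) on these scales. Igfbp6, whose product prefers IGF2, never exceeded 24.2 normalized counts or 34 counts in a library, and its adjusted p between the genotypes was 0.886 at day 0 and 0.214 at day 2. Its genotypes overlapped at day 0, while every KO library lay below WT at day 2 (2.22-fold by the means) and day 4 (1.83-fold). At day 4 the difference of Igfbp6 was -0.102 on the VST scale (SE 0.049) and -0.935 by limma-voom (SE 0.412).

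**Figure D3:**
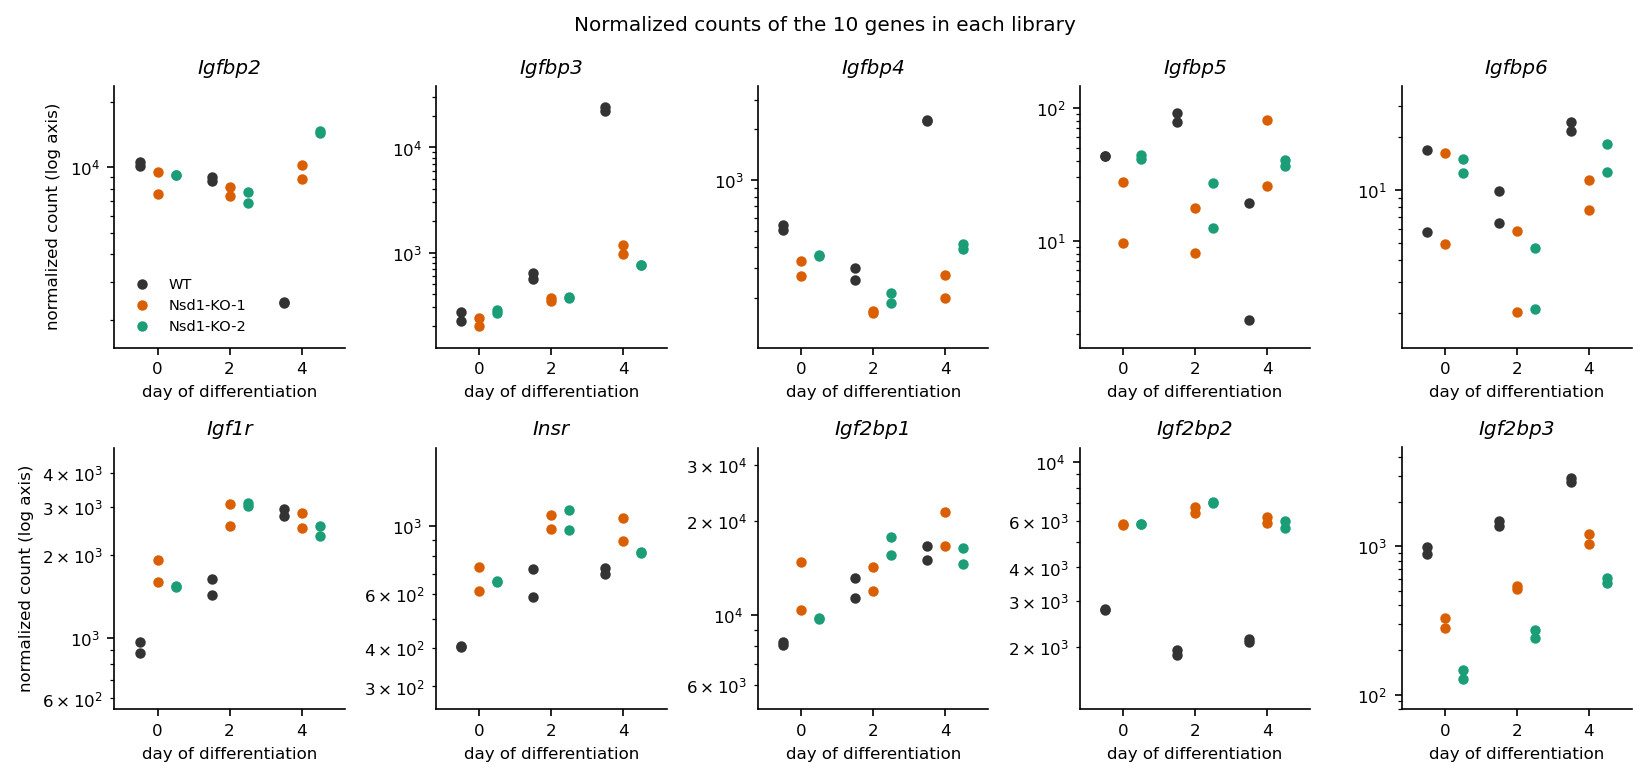
Normalized counts (log axis, a different range in each panel) of the 10 genes at day 0, 2 and 4, each point a library of WT (black), Nsd1-KO-1 (orange) or Nsd1-KO-2 (green). Igfbp3 and Igfbp4 of WT stand above all other libraries at day 4, Igfbp2 of WT stands below them, and the clones separate for Igf2bp3 at every day.

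Igf1r (ENSMUSG00000005533), the IGF1 receptor gene, was higher in KO at day 0 and day 2. WT had 878 and 961 normalized counts at day 0, 1436 and 1643 at day 2, and 2942 and 2778 at day 4. KO had 1924, 1603, 1546 and 1531, then 2554, 3081, 3095 and 3018, then 2862, 2522, 2362 and 2554. At day 0 and day 2 the KO libraries all exceeded the WT ones, and at day 4 the genotypes overlapped. On the log2 scale the gap was 0.584 at day 0 (SE 0.082, adjusted p = 1.44e-05) and 0.73 at day 2 (SE 0.082, adjusted p = 3.99e-07). At day 4 it was -0.126 (SE 0.082). By limma-voom the day 0 difference was 0.835 (SE 0.117, adjusted p = 1.67e-05), and 1.8-fold on normalized counts. That of day 2 was 0.931 by limma-voom (SE 0.111, adjusted p = 1.49e-06), and 1.91-fold.

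On the VST scale the day 0 difference of Igf1r sat at the edge of the fold threshold. It was 0.527 without Nsd1-KO-1 replicate 1, 0.542 without WT replicate 1, 0.512 with Nsd1-KO-2 alone and 0.512 with quantile normalization, each with an adjusted p under the threshold (2.5e-05, 0.00148, 2.29e-07 and 1.17e-05). Long transcripts as a whole had positive values: among the 576 expressed genes with the longest exon sequence, 12669 bases or more, which include Igf1r and Insr, the median log2 fold change was 0.136 at day 0 and 0.214 at day 2. With the median deviation of genes of like length removed from each library, Igf1r was 0.424 at day 0 (adjusted p = 3.16e-06) and 0.518 at day 2 (adjusted p = 1.15e-07), under the fold threshold at both days.

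Over time, Igf1r rose 1.86-fold in WT from day 2 to day 4, by 0.701 (SE 0.094, adjusted p = 4.12e-06). In KO it rose between day 0 and day 2, by 1.78-fold or 0.658 (SE 0.067, adjusted p = 1.22e-07), the only one of the 10 genes past both thresholds in that step by limma on VST values, beside 3.2% of all genes, and with Nsd1-KO-1 alone it was 0.535. Limma-voom passed Igfbp4 and Insr there too, beside 16.3% of all genes. In WT the same step was 1.67-fold, with both day 2 libraries above both of day 0, or 0.511 on the VST scale (SE 0.094, adjusted p = 1.96e-04), under the fold threshold, and 0.749 by limma-voom (SE 0.138, adjusted p = 2.64e-04), past it. The KO effect at day 2 minus that at day 0 was 0.147 (SE 0.115, adjusted p = 0.403), so an earlier rise in KO is not shown by a test.

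Insr (ENSMUSG00000005534), the insulin receptor gene, moved with a smaller range. WT had 405 and 406 normalized counts at day 0, 588 and 726 at day 2, and 733 and 698 at day 4, and KO had 736, 614, 664 and 656, then 978, 1092, 974 and 1130, then 1066, 895, 818 and 824. Every KO library exceeded the WT libraries of its day. The difference was 0.382 at day 0 (SE 0.070, adjusted p = 2.92e-04) and 0.416 at day 2 (SE 0.070, adjusted p = 6.18e-05), under the fold threshold, and by limma-voom 0.704 (adjusted p = 3.8e-04) and 0.667 (adjusted p = 2.48e-04). After the removal of length it was 0.222 and 0.204. Igf1r held 65.0% ± 1.43 (SD, n = 2) of the receptors' normalized counts per kb in WT at day 0 and 76.6% ± 0.124 at day 4, and 66.9% ± 1.46 and 70.1% ± 1.24 in KO (SD, n = 4).

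Igf2bp2 (ENSMUSG00000033581), whose product is known to act in metabolic tissues, was higher in KO at every day with little spread. WT libraries had 2782 and 2769 normalized counts at day 0, 1871 and 1945 at day 2, and 2154 and 2086 at day 4. KO libraries had 5822, 5783, 5814 and 5848 at day 0, 6436, 6789, 6996 and 7085 at day 2, and 6176, 5868, 5626 and 5989 at day 4. The groups did not overlap at any day, and the clones lay close together. The gap on the log2 scale came to 0.925 at day 0 (SE 0.056, adjusted p = 2.76e-10) and 1.57 at day 2 (SE 0.056, adjusted p = 4.68e-14), and 1.26 at day 4 (SE 0.056).

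The effect on Igf2bp2 was larger at day 2 than at day 0, by 0.641 (SE 0.080, adjusted p = 9.58e-06), and of the 10 genes it alone passed this test of the difference, beside 3.19% of all genes. In WT the step from day 0 to day 2 was -0.432 (SE 0.065, adjusted p = 2.19e-05) and in KO 0.209 (SE 0.046, adjusted p = 0.00117), neither past the fold threshold.

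Igf2bp3 (ENSMUSG00000029814) was lower in KO at every day, opposite to Igf2bp2. WT had 889 and 993 normalized counts at day 0, 1382 and 1483 at day 2, and 2900 and 2725 at day 4. Nsd1-KO-1 had 331 and 282, then 538 and 518, then 1212 and 1038, and Nsd1-KO-2 had 146 and 128, then 275 and 243, then 570 and 615. Every KO library was below WT, and Nsd1-KO-2 was below Nsd1-KO-1 at each day. On VST values KO minus WT was -1.09 at day 0 (SE 0.176, adjusted p = 8.07e-05), -1.15 at day 2 (SE 0.176, adjusted p = 2.21e-05) and -1.29 at day 4 (SE 0.176). On counts, KO means were 4.24-fold, 3.64-fold and 3.27-fold under WT at day 0, 2 and 4.

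With differentiation, Igf2bp3 climbed in both genotypes. From day 2 to day 4 the change was 0.756 in WT (SE 0.203, adjusted p = 0.005) and 0.617 in KO (SE 0.144, adjusted p = 0.00304). Neither call held under every alternative, though the day 4 libraries all lay above those of day 2 in each genotype. The clones share 1 group in this fit, so the gap between them counts as spread in both SEs. With Nsd1-KO-2 alone the KO change was 0.573 (adjusted p = 5.48e-08 by limma), under the fold threshold. For the WT step, limma-voom gave an adjusted p of 0.015. Without any one of the 4 WT libraries of these days the WT change was 0.718 to 0.793. In KO the adjusted p was 0.0151 without Nsd1-KO-2 replicate 1 of day 2, 0.0152 without its replicate 2, 0.0107 without Nsd1-KO-1 replicate 1 of day 4 and 0.015 without its replicate 2, and by limma-voom it was 0.00306.

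Igf2bp1 (ENSMUSG00000013415), the most abundant of the IGF2BP genes per kb in every group, showed no difference past the thresholds. It had 8053 and 8239 normalized counts in the WT libraries at day 0, 11340 and 13166 at day 2, and 16590 and 15005 at day 4, against 9715 to 14773, 11934 to 17686 and 14594 to 21368 in KO. KO libraries were all above WT at day 0, and the genotypes overlapped at day 2 and day 4. The difference was 0.408 at day 0 (SE 0.155, adjusted p = 0.0531) and 0.256 at day 2 (SE 0.155, adjusted p = 0.189). The WT step from day 0 to day 2, 0.55 (SE 0.179, adjusted p = 0.0186), did not pass.

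Within the IGF2BP family, Igf2bp2 held more and Igf2bp3 less of the sum in KO. Per kb, Igf2bp1, Igf2bp2 and Igf2bp3 held 63.2% ± 0.00626, 28.2% ± 0.542 and 8.65% ± 0.536 in WT at day 0 (SD, n = 2) and 58.2% ± 4.45, 40.4% ± 4.77 and 1.35% ± 0.492 in KO (SD, n = 4). By day 4 these shares were 72.1% ± 0.735, 12.7% ± 0.482 and 15.2% ± 0.254 in WT and 66.1% ± 2.11, 30.0% ± 2.77 and 3.85% ± 1.03 in KO. The ratio of Igf2bp2 to Igf2bp3 normalized counts was 0.743 and 0.766 in the WT libraries of day 4, 5.09 and 5.65 in Nsd1-KO-1, and 9.86 and 9.74 in Nsd1-KO-2.

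The clones were compared with each other within each day. No gene of the 10 passed both thresholds at day 0 or day 2 and 1 did at day 4, beside 0.029%, 0.0435% and 0.251% of all genes. At day 0 the unadjusted p was under 0.05 for Igf2bp1 (0.0182), Igfbp5 (0.0424) and Igf2bp3 (1.23e-06) and stood at 0.05 for Igfbp3, and at day 2 it was under 0.05 for Igf2bp1 (0.0175) and Igf2bp3 (2.04e-07). By limma-voom Igf2bp3 passed at both days and no other of the 10 did, beside 0.159% and 0.232% of all genes. Igf2bp3 was higher in Nsd1-KO-1 than in Nsd1-KO-2 by 0.426 at day 0 (SE 0.062, adjusted p = 0.00119), 0.482 at day 2 (SE 0.062, adjusted p = 2.48e-04) and 0.57 at day 4 (SE 0.062, adjusted p = 1.95e-05), under the fold threshold on the VST scale and 2.23-fold, 2.04-fold and 1.9-fold on counts. The gene past both thresholds at day 4 was Igfbp2, lower in Nsd1-KO-1 by 0.588 (SE 0.085, adjusted p = 2.94e-04), which became 0.486 without Nsd1-KO-1 replicate 1 and 0.573 without Nsd1-KO-2 replicate 1. Igfbp4 was 1.7-fold lower in Nsd1-KO-1 at day 4, with -0.339 on the VST scale (SE 0.062, adjusted p = 0.00172), under the fold threshold, and -0.735 by limma-voom (SE 0.134, adjusted p = 0.00114), past it, with 2.23% of all genes passing by limma-voom at that day. The difference between clones in Igf2bp3 was smaller than that of either clone from WT, which was 3.07-fold for Nsd1-KO-1 and 6.86-fold for Nsd1-KO-2 at day 0.

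Around these genes, 80 others of the pathway were listed, of which 76 were in the table. Between the genotypes, 2 were higher and 1 lower in KO at day 0, 5 higher and 5 lower at day 2, and 6 higher and 5 lower at day 4. That is 3.95%, 13.2% and 14.5% of them, beside 2.61%, 6.38% and 7.58% of all genes, and their median log2 fold change was 0.024, 0.054 and 0.074. Counts by list below are from limma on VST values unless limma-voom is named, which passed 11, 21 and 22 of them (14.5%, 27.6% and 28.9%) beside 13.3%, 23.9% and 23.9% of all genes.

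Neither ligand in the table, Igf1 or Igf2, passed both thresholds in limma at any day, while limma-voom passed Igf2 at day 4. Igf1 was close to the floor, with 6.59 ± 6.95 (SD, n = 2) normalized counts in WT at day 0 and 15.7 ± 6.19 at day 4, and KO minus WT came to -0.016, -0.071 and 0.083 at the 3 days (adjusted p = 0.873, 0.335 and 0.292). Igf2 had 121 ± 17.0, 82.9 ± 18.7 and 147 ± 12.5 in WT and 160 ± 56.9, 70.0 ± 19.8 and 332 ± 70.5 in KO, with 0.113 (adjusted p = 0.397), -0.06 (adjusted p = 0.627) and 0.441 (adjusted p = 5.57e-04), the last under the fold threshold. Igf2r, the receptor that clears IGF2 to lysosomes, had 0.507 (adjusted p = 0.0198), 0.069 (adjusted p = 0.753) and 0.134 (adjusted p = 0.565). Of the other IGFBP genes and Igfals, the acid labile subunit, 0 of 4 passed at any day in limma on VST values, where 1, 2 and 3 had an unadjusted p under 0.05 at day 0, 2 and 4, and limma-voom passed the same numbers. All had a low level, at most 164 normalized counts in a group mean of day 4. Igfbp1, which lies beside Igfbp3, stayed at a mean of 2.01 normalized counts or less in every group, while Tns3 on the other side had 1396 in WT and 2427 in KO at day 4.

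Of 6 IGFBP protease genes and inhibitors, 1 was higher at day 0, and 1 was higher and 1 lower at day 2. Htra1, a secreted serine protease that cuts IGFBPs, had 393 ± 31.9 normalized counts in WT and 1561 ± 78.9 in KO at day 0, 1.21 on the log2 scale (SE 0.056, adjusted p = 5.34e-12), and 81.3 ± 23.3 against 445 ± 26.8 at day 2, 0.89 (SE 0.056, adjusted p = 1.41e-10). At day 4 Htra1 had 425 ± 39.4 in WT and 292 ± 26.4 in KO and did not pass. Stc2, an inhibitor of the IGFBP4 protease PAPP-A, was lower at day 2, with 388 ± 55.5 in WT and 130 ± 21.8 in KO (-0.607, SE 0.064, adjusted p = 1.93e-07).

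The receptor substrates and adaptors, 12 genes, had 0 calls in limma at day 0, where 4 had an unadjusted p under 0.05 and limma-voom passed Grb7 on the lower side. In limma 3 were lower at day 2 (Grb10, Grb7 and Irs2), and at day 4 Gab1 was higher with Irs1 and Irs2 lower, while limma-voom passed 7 and 5. Irs2, a docking protein for both receptors, had 3857 ± 285 normalized counts in WT and 2212 ± 369 in KO at day 4 (-0.674, SE 0.092, adjusted p = 4.82e-06). Gab1, an adaptor of the same kind, had 1584 ± 88.1 and 4739 ± 201 (1.29, SE 0.086, adjusted p = 1.06e-10). Grb10, which binds the receptors and dampens them, had 4675 ± 134 and 2260 ± 861 at day 2 (-0.936, SE 0.215, adjusted p = 0.00134), and Grb7 1765 ± 62.3 and 900 ± 68.0 (-0.68, SE 0.068, adjusted p = 9.38e-08).

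Among 12 genes of the PI3K and AKT cascade, every call was on the higher side in KO, 1 at day 0 (Phlpp1), 4 at day 2 (Akt1, Phlpp1, Inpp5d and Pik3cb) and 2 at day 4 (Pik3r3 and Inpp5d). The called genes act in opposite directions in the cascade, since PIK3CB and AKT transmit the signal while INPP5D removes a phosphate from its lipids and PHLPP1 from AKT. Inpp5d had 620 ± 100 normalized counts in WT at day 2 and 62.7 ± 3.29 at day 4 against 2284 ± 193 and 860 ± 92.7 in KO (1.29 and 1.51, SE 0.073, adjusted p = 2.68e-11 and 7.84e-13). Pik3cb had 491 ± 25.7 and 1850 ± 309 at day 2 (1.23, SE 0.088, adjusted p = 8.5e-10), and Pik3r3 215 ± 15.9 and 769 ± 46.8 at day 4 (0.897, SE 0.048, adjusted p = 3.43e-12). Of the 10 TSC and mTOR genes 0 passed at any day in limma or limma-voom, and 2, 4 and 0 had an unadjusted p under 0.05 on these days. Of the 6 FOXO and GSK3 genes 0 passed in limma, with 4 at an unadjusted p under 0.05 at each day, and limma-voom passed 1 at each day.

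The LIN28 and let-7 axis with known IGF2BP transcripts, 10 genes, had 0 calls in limma at day 0, where 7 had an unadjusted p under 0.05 and limma-voom passed 4, namely Cd44, H19, Hmga2 and Myc. In limma the list had 1 call at day 2 and 6 at day 4, of which Hmga2, Cd44 and Myc were lower and Lin28a, H19 and Trim71 higher. Hmga2, a let-7 target whose mRNA IGF2BPs bind, had 3844 ± 57.7 normalized counts in WT and 213 ± 57.7 in KO at day 4 (-2.65, SE 0.077, adjusted p = 2.32e-16), and 329 ± 9.10 against 51.7 ± 17.2 at day 2 (-0.827, SE 0.077, adjusted p = 3.14e-08). Cd44 had 605 ± 73.5 and 78.7 ± 24.4 (-1.14, SE 0.065, adjusted p = 1.15e-11) and Myc 1145 ± 83.2 and 455 ± 118 (-0.803, SE 0.100, adjusted p = 1.36e-06) at day 4. Lin28a, which blocks let-7 maturation, had 12713 ± 681 and 21650 ± 3078 (0.73, SE 0.158, adjusted p = 8.36e-04). Of 13 m6A genes, Rbm15, a cofactor of the m6A writer, alone passed, and at day 0 alone, in limma and limma-voom, with 2960 ± 30.9 in WT and 1799 ± 294 in KO (-0.581, SE 0.108, adjusted p = 3.41e-04).

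**Figure D4:**
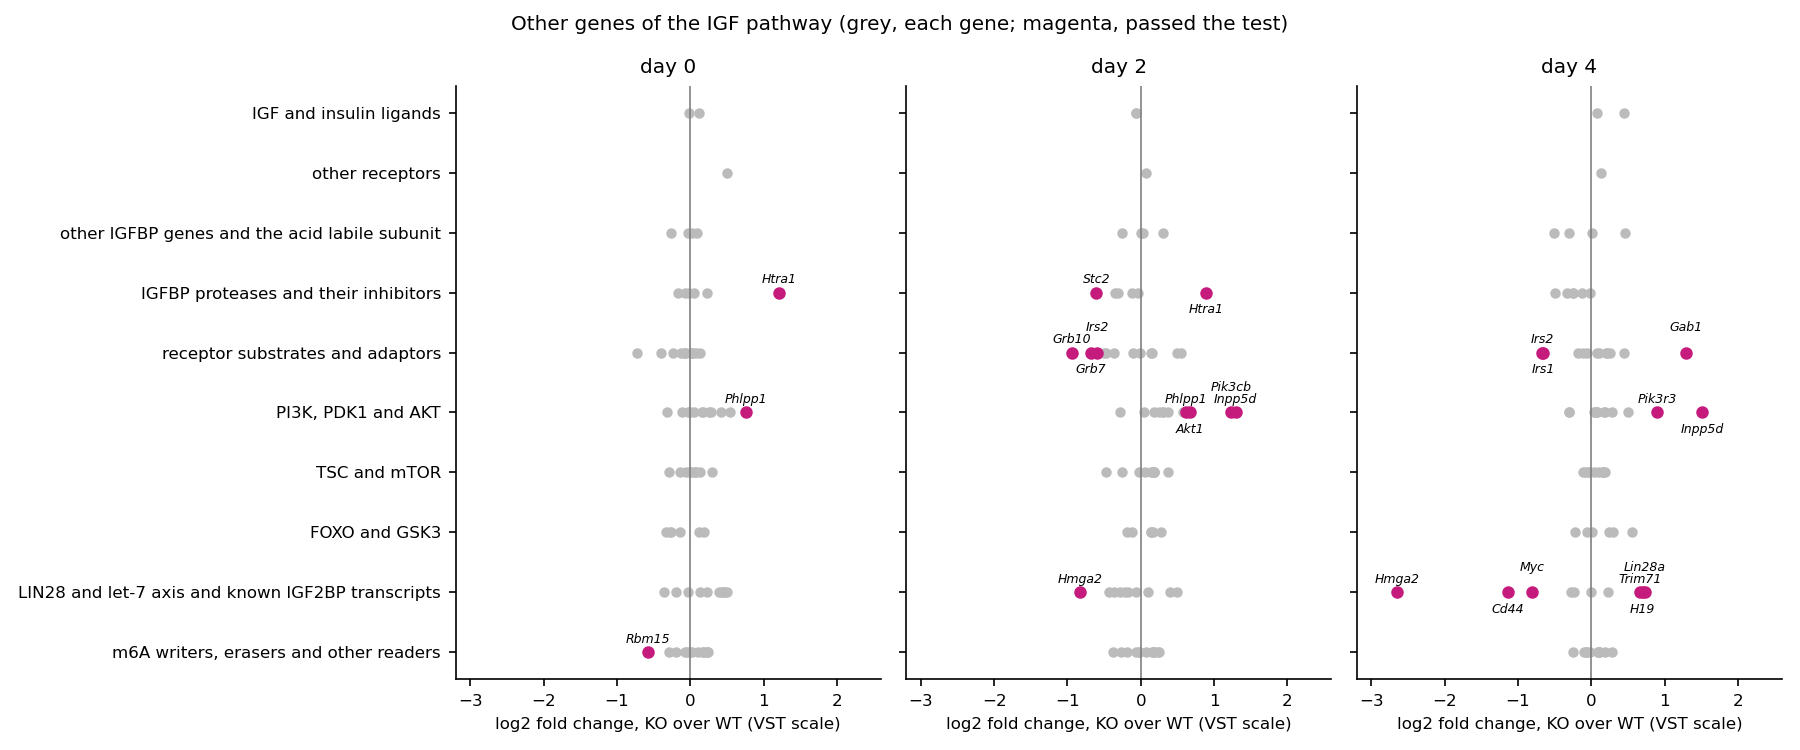
Log2 fold change of KO over WT on the VST scale (x axis) of 76 other genes of the pathway at day 0, 2 and 4, by list, each point a gene, with genes past both thresholds in magenta and named. The calls in the PI3K, PDK1 and AKT list all lie right of 0, and Hmga2 lies farthest left at day 4 with -2.65.

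The course of each gene over all 18 libraries was compared with that of every gene with a mean of at least 50 normalized counts, by Pearson's r on VST values. The libraries share genotype and day, so r describes a likeness of course and carries no p. For Igfbp3, r rests mostly on its high values in the WT libraries of day 4, which chose the gene. Igfbp3 was most like Alox15 (r = 0.993), Gbp2b (0.992), T (0.992), Gbp2 (0.991) and Chst7 (0.991), of which Gbp2b and Gbp2 are similar paralogs whose reads may be shared. Each was low until a high value in WT at day 4: Alox15, a lipoxygenase gene, had 63.4 ± 7.13 normalized counts in WT at day 2 and 3944 ± 57.2 at day 4, against 131 ± 26.3 in KO at day 4. On log2 normalized counts plus 1, 0 of these 5 were again among the 5 most like, so the ranking depends on the scale. The single most like gene was Arl4a for Igfbp2 (r = 0.891), Bak1 for Igfbp4 (0.986), Noc3l for Igfbp5 (0.788), Man1c1 for Igfbp6 (0.822), Gen1 for Igf1r (0.977), Smarca1 for Insr (0.978), Hdlbp for Igf2bp1 (0.970), Pgap6 for Igf2bp2 (0.989) and Ripk4 for Igf2bp3 (0.969). On the log2 scale of normalized counts the gene in first place was another for Igfbp4 (Cnn3), Igfbp5 (Evpl), Igfbp6 (Tinagl1), Igf2bp2 (Gm14569) and Igf2bp3 (Ikbkb).

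Neighbouring genes were read for the same patterns. Tns4, next to Igfbp4, had 271 normalized counts in WT and 10.1 in KO at day 4, and Top2a on its other side 11955 and 11484. Tra2b and Senp2, around Igf2bp2, had 4288 and 1695 in WT and 4199 and 1700 in KO at day 4. Of the neighbours of Igf2bp3, Malsu1 had a lower mean in KO at every day, as Igf2bp3 had, with 318 in WT and 222 in KO at day 0, 278 and 195 at day 2, and 302 and 210 at day 4, while Tra2a had a higher one, with 1603 and 1794, 2138 and 2289, and 1680 and 1995. Synm, beside Igf1r, had 210 and 299 at day 0, 354 and 536 at day 2, and 124 and 742 at day 4. B4galnt2, beside Igf2bp1, had 82.9 and 11.6, 23.6 and 10.6, and 76.9 and 7.44 at the same days. Rpl37a, beside Igfbp2, had 3814 in WT and 2853 in KO at day 4. These means carry no test here.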

How the data were processed

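Poly-A RNA of 18 mESC libraries (WT, Nsd1-KO-1 and Nsd1-KO-2 at day 0, 2 and 4) was sequenced with paired ends from a kit that does not mark strand, so that reads of an antisense partner of a gene such as Igf2 cannot be told apart. The authors trimmed reads with Trim Galore 0.6.7, aligned them to mm39 with STAR 2.7.11a, counted fragments on exons with featureCounts 2.0.6, removed genes with an average count under 1 and deposited log2 values after the variance stabilizing transformation of DESeq2 1.42.0. No counts were used other than those recovered by inverting this transformation, which came out whole for 100% of values (tolerance 0.01). Of the recovered counts from 1 to 20, 74.9% were even, for a reason not given in the sources used here. The study's methods name fragments as the unit counted. If read pairs were counted as 2 all the same, depths are overstated, so limma-voom was also run on halved counts.

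Groups came from the labels. The deposited values were tested with limma 3.58.1 (R 4.3.3; empirical Bayes with a mean trend) in one fit of 6 groups, or of 9 groups for the clones, and p-values were adjusted by Benjamini-Hochberg across the 20703 genes. To pass, a gene needed an adjusted p below 0.01 together with a log2 fold change beyond 0.58 in either direction. Scripts were tested on simulated data with 200 changed genes. Fold changes of the VST values understate those of weakly expressed genes, so limma-voom on the recovered counts and ratios of mean normalized counts are given too. Normalized counts per kb use the union of a gene's exons. Over all groups, same-numbered replicates did not deviate together (mean r -0.0451 over 36 pairs of groups, from -0.583 to 0.613), so the main fit has no block. Within day 2 they did, with r of 0.439 and 0.337 between WT and the clones and 0.405 between the clones, so day 2 was also fitted alone with a replicate block. Alternatives were limma-voom, log2 normalized counts plus 1, quantile normalization, a filter at a mean of 10, each day alone, separate clones, a replicate block, other thresholds, thinning to 9309874 counts and leaving out each library. A correction for exon length, in 20 bins of genes with a mean of 50 or more, was added after the data were seen, as were the halved counts and the block within day 2.

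The genes, the lists and the rule for naming were chosen with earlier results of these data known. Named were all 10 genes and Nsd1, up to 4 called genes per pathway list by size of change, Igf1, Igf2 and Igf2r, and the genes most like each member. Akt1, Phlpp1, Irs1, H19, Trim71, the marker genes and the neighbours were named after their values were seen. Some genes of the pathway are not reported here. Precision is limited by 2 libraries per line and day. The p-values measure the spread between these cultures and, where the clones are pooled as KO, also the gap between the clones. Promoters are those of RefSeq on GRCm38.p6.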

Additional observations from a re-analysis of the deposited data

Results flagged for a closer look

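Within groups of 4 KO libraries, 30 combinations of gene and day were examined for a library far from the others, and chance flags about 1 in 20 such groups. For 3 combinations the gap of the farthest library to its neighbour, as a fraction of the range on the VST scale, was above Dixon's critical value at the 95% level. Igfbp2 at day 0 had a fraction of 0.865 on that scale, with Nsd1-KO-1 replicate 1 at 7535 normalized counts and the others at 9193 to 9480. Igf2bp1 at day 0 had 0.832 on the VST scale, with the same library at 14773 normalized counts and the others at 9715 to 10432. Igf1r at day 2 had 0.867 on the VST scale, with Nsd1-KO-1 replicate 1 at 2554 normalized counts and the others at 3018 to 3095.

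The KO effect on Igf2bp2 differed between days: it was larger at day 2 than at day 0 by 0.641 on the log2 scale (SE 0.080, adjusted p = 9.58e-06 by limma), with 4 of 4 KO libraries above both WT libraries at each of these days.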

How the results depend on the processing

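The calls of Igf2bp2 and Igf2bp3 between the genotypes at day 0 and day 2 held under every alternative run. Of the counts of genes called, 356 values under alternatives stayed within 1.5 times the reported count and 65 did not. Of the values of single genes, 35 kept their direction but no longer passed under an alternative and 89 passed there alone. At day 0, where 3 of the 10 genes passed, limma-voom on thinned counts and an adjusted p under 0.05 without a fold threshold each gave 5. At day 2, also 3, limma-voom, log2 normalized counts plus 1 and thinned counts each gave 6 and the p threshold of 0.05 gave 7. From day 0 to day 2 in WT, 1 became 4 under these first alternatives (limma-voom, log2, thinned), 2 with exon length corrected, 6 at 0.05 and 0 to 2 without one library. In KO the same step gave 3 under limma-voom, log2 and thinned counts, 0 with Nsd1-KO-1 alone, 2 with Nsd1-KO-2 alone and 7 at 0.05. From day 2 to day 4 in KO, 3 became 1 with Nsd1-KO-2 alone, 7 at 0.05 and 1 to 3 without one library, the lowest without Nsd1-KO-2 replicate 2 of day 2. The change of the KO effect between days gave 2 in place of 1 at 0.05. Between the clones, 0 at day 0 and at day 2 became 1 under limma-voom, log2, thinned counts and at 0.05, and 1 at day 4 became 3 under limma-voom, log2 and thinned counts, 4 at 0.05, 0 with quantile normalization, with exon length corrected or with the day alone, and 0 to 2 without one library. For the other pathway genes, 3, 10 and 11 calls at day 0, 2 and 4 became 11, 21 and 22 by limma-voom, 12, 21 and 23 on the log2 scale, 11, 22 and 21 on thinned counts, and 27, 45 and 33 at 0.05, and the 3 of day 0 became 5 with Nsd1-KO-1 alone. On halved counts limma-voom gave the same counts of calls, other than 12 in place of 11 for the pathway genes at day 0. Some values changed sign, most of them near 0. Igfbp3 at day 0 (-0.005) was 0.038 by limma-voom, 0.037 on halved counts, 0.024 with exon length corrected, 0.063 with Nsd1-KO-2 alone, 0.026 on thinned counts and -0.06 to 0.049 without one library. Igfbp6 at day 0 (0.012) was -0.082 by limma-voom, -0.061 on halved counts, -0.011 with Nsd1-KO-1 alone and -0.055 to 0.08 without one library, and its WT step from day 0 to day 2 (-0.033) was -0.1 to 0.035. The WT step of Insr from day 2 to day 4 (0.075) was -0.049 with quantile normalization and -0.013 to 0.162 without one library. The KO step of Igf2bp1 between the same days (0.207), which is not near 0, was -0.095 with Nsd1-KO-2 alone. Its mean normalized count went from 13095 to 18983 in Nsd1-KO-1 and from 16616 to 15511 in Nsd1-KO-2. With the replicate block, 3 of the 10 genes passed between the genotypes at day 0 and 3 at day 2, and no count of calls moved by over 1.5 times, pairing being given by number only. At day 4, the day that chose the list, 5 were past both thresholds with the block, from which nothing is read. With day 2 alone and a replicate block, 3 of the 10 genes and 9 of the pathway genes passed at day 2, where the main fit passed 3 and 10. The cause of these changes was not tested. Igfbp5 and Igfbp6 had few counts and stayed out of the length correction for their low mean.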
